A study of Sus scrofa with 54 samples.

Results

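Expression of the mucosal antimicrobial genes LYZ, PI3, BPI and DMBT1 was followed in the ileum of piglets raised in isolators, indoors or outdoors. The genes were represented by 5 of the 24057 probesets on Affymetrix porcine arrays, namely those named with 1 of the 4 gene symbols. The 4 genes were chosen with earlier results of these data known, and all 5 probesets stand on a gene list that the study drew from its indoor against outdoor comparison at day 56. The array annotation named Ssc.15989.1.S1_at as PI3, Ssc.837.1.A1_at and Ssc.8960.1.A1_at as BPI, and Ssc.19393.1.S1_at as DMBT1. It gave no symbol for Ssc.670.2.S1_at, which is called LYZ in that list.

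All piglets were Large White × Landrace crosses, and the sows had been inseminated by the same boar. Isolator piglets (IR) were born indoors, moved into individual isolators on the day after birth, dosed with Baytril and Amoxinsol every day until the end of the study and fed milk replacer until day 28. Indoor (IN) and outdoor (OUT) piglets stayed with their sows, and every group was weaned at day 28 onto creep feed. Ileal tissue was taken at days 5, 28 and 56 with 6 piglets in each of the 9 groups and 1 array for each piglet, which makes 54 arrays.

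The 4 proteins act at epithelial surfaces in different ways. Lysozyme (LYZ) cuts the peptidoglycan of bacterial cell walls and is made by macrophages, neutrophils and, in human and mouse, Paneth cells. Elafin (PI3) is a secreted inhibitor of neutrophil elastase with antibacterial activity of its own, BPI binds the lipid A part of lipopolysaccharide and kills Gram-negative bacteria, and DMBT1 is a scavenger receptor-like protein of the mucus that agglutinates bacteria. LYZ and BPI are classical products of phagocytes, whereas PI3 and DMBT1 are classical epithelial products.

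Values are deposited log2 signals. The median signal of an array lay between 3.99 and 4.22, so values near or below 4 belong to the dimmer part of the array. Enterocyte genes marked the tissue as intestinal mucosa: the mean log2 signal of 9 enterocyte markers lay between 11.53 and 13.29 in 53 arrays. OUT replicate 3 of day 5 stood apart, with a mean of 5.90 for the enterocyte markers and 6.87 for 7 neutrophil markers, against 2.15 to 3.0 for the neutrophil markers in all other arrays. Its mean correlation with the arrays of its own group was 0.881. Without it the day 5 means of OUT were 8.37 ± 0.58 and 4.96 ± 0.74 for the BPI probesets and 11.14 ± 1.90 for DMBT1 (SD, n = 5). The intestinal genes GUCA2B and FABP6 averaged 10.18 and 8.89 over the 54 arrays. Their joint mean by group was 6.33 to 6.77 at day 5 and 11.97 to 12.27 at day 56, so these averages do not describe each age. In whole tissue, fewer cells of a type and less RNA per cell cannot be told apart.

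DMBT1 gave the strongest signal, averaging 10.90 over the 54 arrays, followed by the brighter BPI probeset at 8.84, PI3 at 7.65, the dimmer BPI probeset at 5.36 and LYZ at 4.35. Probes differ in brightness, so these averages do not rank the genes by transcript number. DMBT1, PI3 from day 28 on, and the brighter BPI probeset exceeded the array median in all 6 arrays of every group. LYZ exceeded it in all 6 arrays of IN at day 56 only, and in 1 to 3 arrays of each of the other groups.

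**Figure D1:**
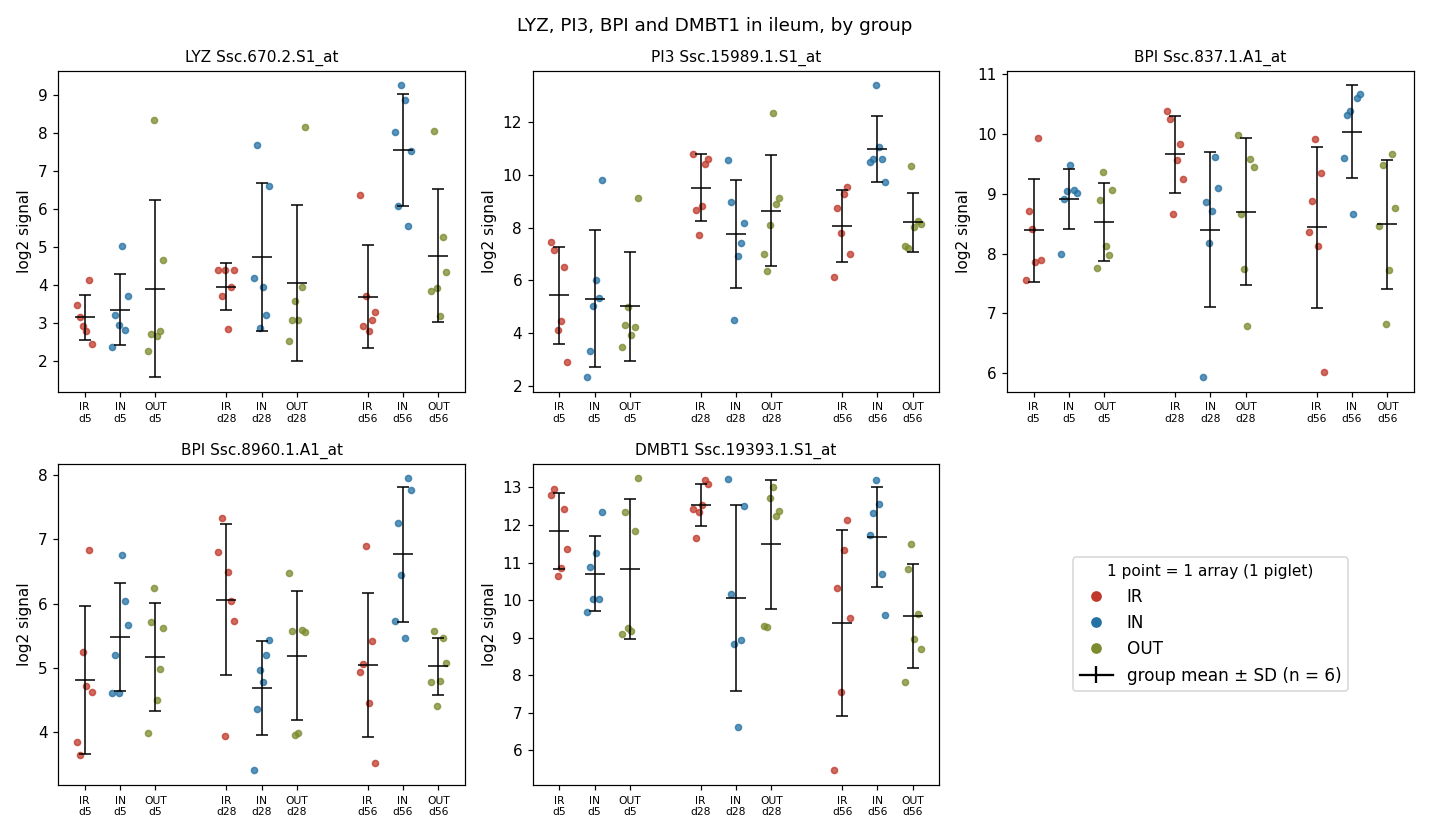
Log2 signal (y axis) of the 5 probesets by rearing group and day (x axis). Each point is 1 array, bars are the group mean ± SD of 6 arrays, and LYZ, PI3 and the BPI probesets have their highest group mean in IN at day 56.

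At day 5 the rearing groups overlapped for every probeset. LYZ averaged 3.14 ± 0.59 in IR, 3.34 ± 0.94 in IN and 3.90 ± 2.34 in OUT (log2 signal, SD, n = 6 each). The OUT mean included a value of 8.36 in the array that stood apart and was 3.0 ± 0.94 over the other 5 arrays, whereas the PI3 mean of OUT was 5.02 with and without that array. PI3 spread widely at this age, ranging over 2.93 to 7.44 in IR, 2.34 to 9.80 in IN and 3.50 to 9.11 in OUT.

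DMBT1 was already bright at day 5. Its lowest, median and highest values were 10.65, 11.88 and 12.97 in IR, 9.67, 10.46 and 12.35 in IN, and 9.09, 10.56 and 13.24 in OUT. The IR values lay towards the upper end, but they overlapped with those of both other groups, and the log2 fold change of IR over IN was 1.14 ± 0.73 (SE, limma unadjusted p = 0.138). The brighter BPI probeset averaged 8.39 ± 0.86 in IR, 8.92 ± 0.50 in IN and 8.53 ± 0.66 in OUT.

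A probeset was called when its unadjusted limma p was under 0.01 and its change at least 2-fold. At day 5 none of the 5 probesets was called in IR against OUT, where 0.337% of all probesets were, in IN against OUT (0.0499% of all) or in IR against IN (0.366% of all). No member reached an unadjusted p of 0.05 in these comparisons either. Leaving out any single array, that of OUT replicate 3 included, gave 0 calls as well.

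By day 28, at weaning, the means of PI3, both BPI probesets and DMBT1 were highest in IR and lowest in IN. DMBT1 showed this most clearly. Its lowest, median and highest values were 11.65, 12.49 and 13.19 in IR, 6.63, 9.55 and 13.23 in IN, and 9.28, 12.32 and 13 in OUT. The 6 IR arrays were all bright, whereas 4 of the 6 IN arrays fell below every IR array and the other 2 lay within or just above the IR range. IN replicate 3 held the lowest PI3 value of its group, 4.49 against 6.91 to 10.55 in the other IN arrays. Its mean level of 7 T cell markers was 3.26, where the group means of day 5 were 3.30 to 3.45.

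The log2 fold change of DMBT1 in IR over IN at day 28 was 2.49 ± 0.96 (SE, limma unadjusted p = 0.0185, adjusted p = 0.627). Both BPI probesets ran the same way, with fold changes of 1.26 ± 0.59 for the brighter (limma unadjusted p = 0.0494) and 1.37 ± 0.54 for the dimmer one (unadjusted p = 0.0206). For the dimmer BPI probeset 5 of the 6 IR arrays exceeded every IN array. PI3 differed by 1.75 ± 0.998 (limma unadjusted p = 0.0979), and LYZ ranged from 2.82 to 4.40 in IR and from 2.87 to 7.68 in IN.

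None of these differences met the call rule, so the count was 0 of 5 in IR against IN at day 28, beside 0.495% of all probesets. DMBT1 met the rule once IN replicate 1 (limma unadjusted p = 0.00285) or IN replicate 6 (unadjusted p = 0.00626) was left out, and the dimmer BPI probeset met it without IR replicate 3 (unadjusted p = 0.00138). Neither IR against OUT (0.154% of all probesets) nor IN against OUT (0.191% of all) had a called member at day 28.

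At day 56 the order of the groups was another, and IN had the highest mean for every one of the 5 probesets. Because the study's list came from IN against OUT at this age, their values in this contrast are given as a description of a known selection and not as independent evidence. The same IN arrays enter IR against IN at day 56 and the IN age comparisons with day 56. The same OUT arrays enter IR against OUT at day 56 and the OUT age comparisons with day 56. Values, calls and separations in comparisons that hold these IN or OUT arrays are therefore shaped in part by the selection. Nothing is read from their shares.

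LYZ had a lowest, median and highest log2 signal of 5.56, 7.78 and 9.27 in IN, against 3.17, 4.12 and 8.07 in OUT. All 6 IN arrays were above their array median, and 5 of the 6 OUT arrays lay below the lowest IN array, whereas OUT replicate 2 lay among the IN values. IN exceeded OUT by 2.79 ± 0.83 on the log2 scale (SE, limma unadjusted p = 0.00353). Of the 48 arrays in the other groups, 6 reached the lowest IN value at day 56.

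PI3 reached 9.72, 10.60 and 13.38 in IN (lowest, median and highest), against 7.22, 8.08 and 10.31 in OUT. Every IN array but 1 was above all OUT arrays, and OUT replicate 3 was the only OUT array within the IN range. The log2 fold change was 2.77 ± 0.67 (SE), or 6.80-fold, with a limma unadjusted p of 6.56e-04 and an adjusted p of 0.400. It lay between 2.28 and 3.19 when single arrays were left out. By real-time PCR on the RNA isolated for the arrays, the study also reported PI3 as higher in IN than OUT at this age.

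Both BPI probesets had higher means in IN. The brighter one had a lowest, median and highest value of 8.66, 10.35 and 10.67 in IN, against 6.82, 8.62 and 9.66 in OUT, a log2 fold change of 1.55 ± 0.59 (limma unadjusted p = 0.0169). The dimmer one had 5.47, 6.85 and 7.95 in IN, against 4.40, 4.94 and 5.57 in OUT, a log2 fold change of 1.75 ± 0.50 (limma unadjusted p = 0.00247, adjusted p = 0.506). For the dimmer probeset 5 of the 6 IN arrays exceeded all OUT arrays, and for the brighter one 4 of 6 did.

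DMBT1 ranged from 9.59 to 13.21 around a median of 12.03 in IN, against 7.82 to 11.50 around a median of 9.29 in OUT. As for the brighter BPI probeset, 4 of the 6 IN arrays were above all OUT arrays, and the log2 fold change of 2.11 ± 0.97 had a limma unadjusted p of 0.0437. An exact two-sided permutation test of the 2 group means has a smallest possible p of 0.00216. The permutation p was 0.0216 for LYZ, 0.00433 for PI3, 0.0195 and 0.00649 for the brighter and dimmer BPI probesets and 0.0281 for DMBT1. These are 5 of 45 such within-day tests.

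In all, 3 of the 5 probesets (LYZ, PI3 and the dimmer BPI probeset) met the call rule as higher in IN than OUT at day 56, beside 0.216% of all probesets, a share from which nothing is read here because the contrast had selected them. None had an adjusted p under 0.05, and neither had any other probeset of the array, although 1881 probesets had an unadjusted p under 0.05. LYZ fell short of the rule without IN replicate 2, IN replicate 4 or OUT replicate 4, when its log2 fold change was 2.45, 2.53 and 2.47. The brighter BPI probeset met it without IN replicate 4 (limma unadjusted p = 0.00708) or OUT replicate 5 (unadjusted p = 0.00898). The study's fit also held a block for the run of the experiment, which this fit lacks, so its calls need not be the same.

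**Figure D2:**
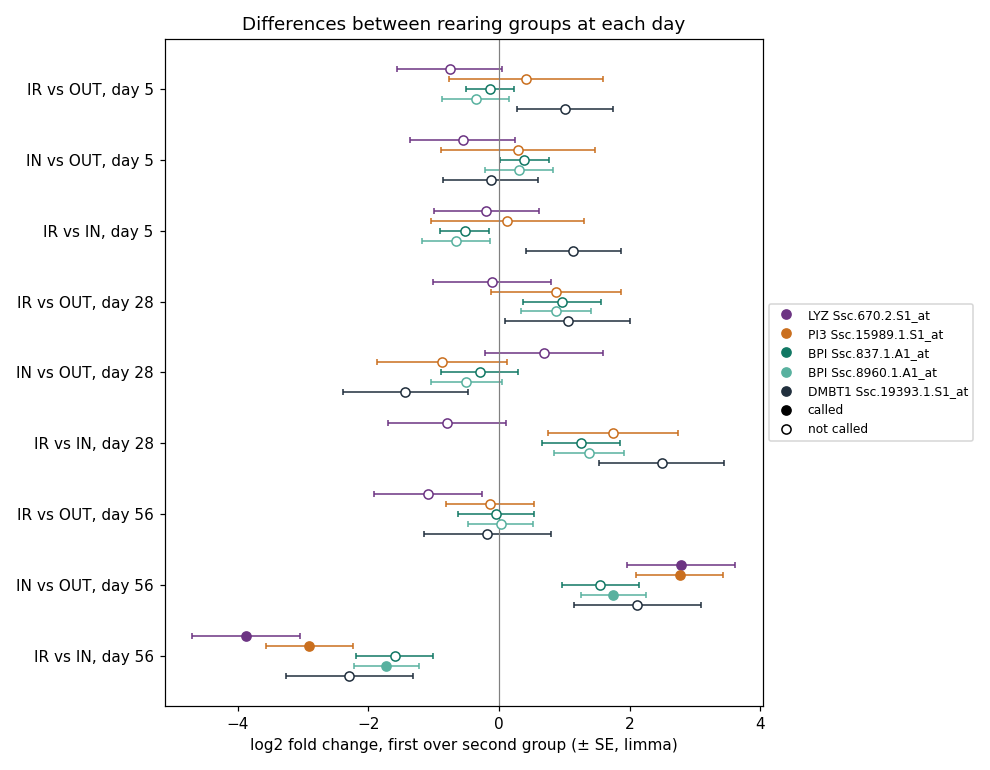
Log2 fold change (x axis, ± SE from limma) of the 5 probesets in each comparison of rearing groups (y axis, first over second group), with filled symbols for called probesets. Calls occur only at day 56, on the right in IN vs OUT and on the left in IR vs IN, while all 5 probesets are uncalled in IR vs OUT.

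Isolator piglets at day 56 had means near those of the outdoor piglets for PI3, the brighter BPI probeset and DMBT1. PI3 averaged 8.06 ± 1.35 in IR and 8.20 ± 1.12 in OUT, the brighter BPI probeset 8.44 ± 1.35 in IR and 8.49 ± 1.08 in OUT, and DMBT1 9.39 ± 2.49 in IR and 9.57 ± 1.38 in OUT. These differences were smaller than their standard errors. The OUT arrays of day 56 had entered the selection of the members as the lower group, so comparisons with them are not free of it. LYZ averaged 3.68 ± 1.36 in IR and 4.77 ± 1.76 in OUT, a log2 fold change of -1.09 ± 0.83 (limma unadjusted p = 0.206), and 3 of the 6 IR arrays lay below every OUT array. No member was called in IR against OUT at day 56, beside 0.283% of all probesets, and with standard errors of 0.50 to 0.97 on the log2 scale, differences of that order could not have been detected.

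Against IN, the IR piglets of day 56 had lower means for all 5 probesets. LYZ had a lowest, median and highest value of 2.77, 3.16 and 6.36 in IR, against 5.56, 7.78 and 9.27 in IN. The 5 numbered IR arrays were all below the IN arrays, and the IR array without a number in its label, at 6.36, was within the IN range. The log2 fold change was -3.88 ± 0.83 (SE, limma unadjusted p = 1.99e-04, adjusted p = 0.319). LYZ exceeded the array median in 1 of the 6 IR arrays, so no linear fold is given against this dim signal.

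PI3 was the only member whose IR and IN values did not overlap at day 56, with a lowest, median and highest value of 6.11, 8.25 and 9.54 in IR, against 9.72, 10.60 and 13.38 in IN. A complete separation with IR below IN was seen for 0.216% of all probesets. The log2 fold change was -2.91 ± 0.67 (limma unadjusted p = 4.16e-04, adjusted p = 0.393), and the exact permutation p of 0.00216 is the smallest that 6 against 6 arrays can give.

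The dimmer BPI probeset had a log2 fold change of -1.72 ± 0.50 in IR over IN (SE, limma unadjusted p = 0.00279), and 5 of its 6 IR arrays lay below every IN array. The brighter one differed by -1.60 ± 0.59 (limma unadjusted p = 0.0143). DMBT1 differed by -2.30 ± 0.97 (limma unadjusted p = 0.0299), and its IR arrays were the most scattered, ranging from 5.46 in the unnumbered array to 12.12. Altogether 3 of the 5 probesets were called lower in IR than IN at day 56, beside 0.166% of all probesets. The IN arrays are those of the contrast that had selected the members, so nothing is read from this share. LYZ, PI3 and the dimmer BPI probeset met the rule whichever single array was left out, and no adjusted p was under 0.05 for a member. The brighter BPI probeset met it without IR replicate 2 (limma unadjusted p = 0.00516) or IN replicate 4 (unadjusted p = 0.00600), and DMBT1 met it without IR replicate 5 (unadjusted p = 0.00837).

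The change of the IN over OUT difference with age was computed in a fit over all 9 groups. It contains the day 56 contrast on which the probesets had been selected, so a larger difference at day 56 is in part built in, and the values are a description. Between day 28 and day 56 the log2 difference of IN over OUT grew by 3.55 ± 1.32 for DMBT1 (SE, limma unadjusted p = 0.00988, adjusted p = 0.379). Its mean was 10.05 in IN and 11.49 in OUT at day 28, and 11.68 in IN and 9.57 in OUT at day 56. The change was 2.25 ± 0.76 for the dimmer BPI probeset (limma unadjusted p = 0.00495, adjusted p = 0.334), 3.65 ± 1.44 for PI3 (unadjusted p = 0.0144), 1.85 ± 0.78 for the brighter BPI probeset (unadjusted p = 0.0220) and 2.10 ± 1.26 for LYZ (unadjusted p = 0.101).

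In this fit 2 of the 5 probesets had an unadjusted p under 0.01 for a larger IN over OUT difference at day 56 than at day 28, beside 1.23% of all probesets, a share from which nothing is read for the same reason. The DMBT1 change missed that threshold in 16 of the 24 limma fits that left out 1 array, with p between 0.00232 and 0.0309. It passed only without IN replicate 5 or 6 or OUT replicate 2 or 3 of day 56, or without IN replicate 1 or 6 or OUT replicate 1 or 2 of day 28. The dimmer BPI probeset missed it in 4 of 24 limma fits, with p up to 0.0130, namely without IN replicate 5 or 6 of day 56 or without IN replicate 1 or OUT replicate 1 of day 28. PI3 passed in 4 of 24, without OUT replicate 3 of day 56, IN replicate 1 of day 28 or OUT replicate 1 or 2 of day 28, and the brighter BPI probeset in 2, without IN replicate 4 of day 56 or OUT replicate 4 of day 28. Between day 5 and day 56 no member passed (1.29% of all probesets did), and LYZ came nearest, with a change of 3.35 ± 1.26 (limma unadjusted p = 0.0105). LYZ passed in 8 of 24 limma fits, without IN replicate 1 or 5 or OUT replicate 2 of day 56, IN replicate 4 of day 5 or OUT replicate 1, 2, 4 or 5 of day 5, and its lowest change over the 24 was 2.45. The IR over OUT difference did not change detectably between day 28 and day 56 (0 of 5, 0.711% of all). Nor did it between day 5 and day 56 (0 of 5, 0.624% of all). Both changes hold the OUT arrays of day 56, which had entered the selection.

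Each gene also had its own course with age. PI3 rose early, in IR and in OUT. Its lowest, median and highest values in IR were 7.72, 9.60 and 10.79 at day 28, against 2.93, 5.49 and 7.44 at day 5, so that the 2 ages did not overlap, as was the case for 3.80% of all probesets. The log2 fold change was 4.06 ± 1.01 (SE, limma adjusted p = 0.00420), or 16.7-fold.

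Markers of other cells were higher at day 28 too. Of all 24057 probesets, 697 were called higher at day 28 than at day 5 in IR, 901 in IN and 747 in OUT. Of the 7 T cell genes, 6 were called higher at day 28 than at day 5 in each rearing group, with median log2 fold changes of 3.87 in IR, 2.93 in IN and 2.92 in OUT. Of the 10 macrophage and monocyte genes, 6 were called higher in IR, 3 in IN and 2 in OUT, and of the 9 enterocyte genes, 1 in IR, 1 in IN and 7 in OUT. The OUT count includes replicate 3 of day 5, the array with few enterocyte transcripts. The enterocyte mean of OUT at day 5 was 11.05 ± 2.53 with that array and 12.08 ± 0.20 without it (SD). At day 28 it was 12.62 ± 0.18. Over the 54 arrays, which share rearing group and age, PI3 correlated with the plasma cell list at r = 0.77, the goblet list at r = 0.73 and the T cell list at r = 0.70, and at 0.52, 0.37 and 0.27 after group means were subtracted. With the mean of GUCA2B and FABP6, PI3 correlated at r = 0.67, and at 0.32 after the same subtraction. The part of these cells and markers in the PI3 changes with age was not tested.

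PI3 was the one member of 5 called between day 5 and day 28 in IR, beside 2.90% of all probesets called higher. The dimmer BPI probeset joined it without IR replicate 3 of day 28 (limma unadjusted p = 0.00310), and both BPI probesets joined it without IR replicate 5 of day 5. In OUT it rose by 3.61 ± 1.01 over the same period (adjusted p = 0.0103), again as the one member called, beside 3.11% of all probesets, and it was called whichever single array was left out. In IN the change of 2.45 ± 1.01 missed the rule (unadjusted p = 0.0199, adjusted p = 0.0781), no member was called, and 8.07% of all probesets were. PI3 met the rule in IN without IN replicate 3 of day 28 (limma unadjusted p = 0.00414) or IN replicate 6 of day 5 (unadjusted p = 0.00139), which were the lowest and the highest PI3 array of those groups.

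Between day 28 and day 56, 4 of the 5 probesets rose in IN, beside 1.55% of all probesets called higher. Nothing is read from this share, because the IN arrays of day 56 had entered the selection of the members. Of the 7 T cell genes 3 were called higher in IN over this period (median 1.34), and their part in the member changes was not tested. LYZ gained 2.82 ± 0.89 on the log2 scale (SE, limma unadjusted p = 0.00266, adjusted p = 0.05002), and PI3 3.22 ± 1.01 (unadjusted p = 0.00267, adjusted p = 0.05004). The brighter BPI probeset gained 1.64 ± 0.55 (limma unadjusted p = 0.00473, adjusted p = 0.0694) and the dimmer one 2.08 ± 0.54 (unadjusted p = 3.50e-04, adjusted p = 0.0143).

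The dimmer BPI probeset was the only one of these with an adjusted p under 0.05, and its 6 IN arrays at day 56, at 5.47 to 7.95, were all above its 6 IN arrays at day 28, at 3.40 to 5.43. Such a separation was seen for 1.28% of all probesets. Without IN replicate 2 of day 56 the calls of LYZ (limma unadjusted p = 0.0104), PI3 (unadjusted p = 0.0123) and the brighter BPI probeset (unadjusted p = 0.0101) were lost. Without IN replicate 3 of day 28, those of LYZ (limma unadjusted p = 0.0111) and PI3 (unadjusted p = 0.0162) were lost. That array had a mean T cell marker level of 3.26, against 5.71 to 7.85 in the other IN arrays of day 28. The brighter BPI probeset also missed the rule without IN replicate 5 (limma unadjusted p = 0.0121) or 6 (unadjusted p = 0.0126) of day 56 or replicate 1 of day 28 (unadjusted p = 0.0374).

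In IR, DMBT1 fell over the same period. Its lowest, median and highest values were 5.46, 9.92 and 12.12 at day 56, against 11.65, 12.49 and 13.19 at day 28, and 5 of the 6 day 56 arrays lay below every day 28 array. The log2 fold change was -3.15 ± 0.93 (SE, limma adjusted p = 0.0377), and DMBT1 was the one member of 5 called lower, beside 1.13% of all probesets. All 5 proliferation genes had negative log2 fold changes in IR over this period (median -0.78), and none was called. Without the unnumbered IR array of day 56 the change was -2.37 (limma unadjusted p = 0.0128) and the call was lost. The dimmer BPI probeset was called lower in IR without IR replicate 3 of day 28 (limma unadjusted p = 0.00983).

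DMBT1 also averaged lower at day 56 than at day 28 in OUT, at 9.57 ± 1.38 against 11.49 ± 1.72, but the log2 fold change of -1.92 ± 0.93 missed the rule (limma unadjusted p = 0.0458). No member was called in OUT between these ages, beside 3.06% of all probesets. The OUT arrays of day 56 had entered the selection as the lower group, so a lower mean at that age is in part built in. In IN the DMBT1 mean was higher at day 56, by 1.64 ± 0.93 (limma unadjusted p = 0.0866).

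Between day 5 and day 56, LYZ rose in IN by 4.22 ± 0.89 (SE, limma adjusted p = 2.60e-04), and PI3 by 5.66 ± 1.01 (adjusted p = 2.50e-05), which is 50.7-fold. LYZ was dim in IN at day 5, above the array median in 1 of 6 arrays, and no linear fold is given for it. T cell genes were called higher in this comparison for 6 of 7 (median 4.70) and macrophage and monocyte genes for 6 of 10 (median 1.54). LYZ and PI3 were 2 of the 5 probesets, beside 5.98% of all probesets called higher, a share from which nothing is read for the same reason as above. The LYZ arrays did not overlap between these ages, which held for 8.53% of all probesets. The dimmer BPI probeset was called higher in IN too without IN replicate 4 of day 56 (limma unadjusted p = 0.00792) or IN replicate 4 of day 5 (unadjusted p = 0.00822). In OUT only PI3 was called, with a rise of 3.18 ± 1.01 (adjusted p = 0.0152) beside 4.98% of all probesets, and the call was lost without OUT replicate 3 of day 56 (limma unadjusted p = 0.0120). In IR no member was called between day 56 and day 5, beside 8.39% of all probesets, although PI3 had a fold change of 2.63 ± 1.01 (limma unadjusted p = 0.0127) and DMBT1 one of -2.45 ± 0.93 (unadjusted p = 0.0117). PI3 met the rule there without the unnumbered array of day 56 or replicate 1 or 2 of day 5, and DMBT1 without replicate 3 or 5 of day 56 or replicate 3 or 4 of day 5.

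**Figure D3:**
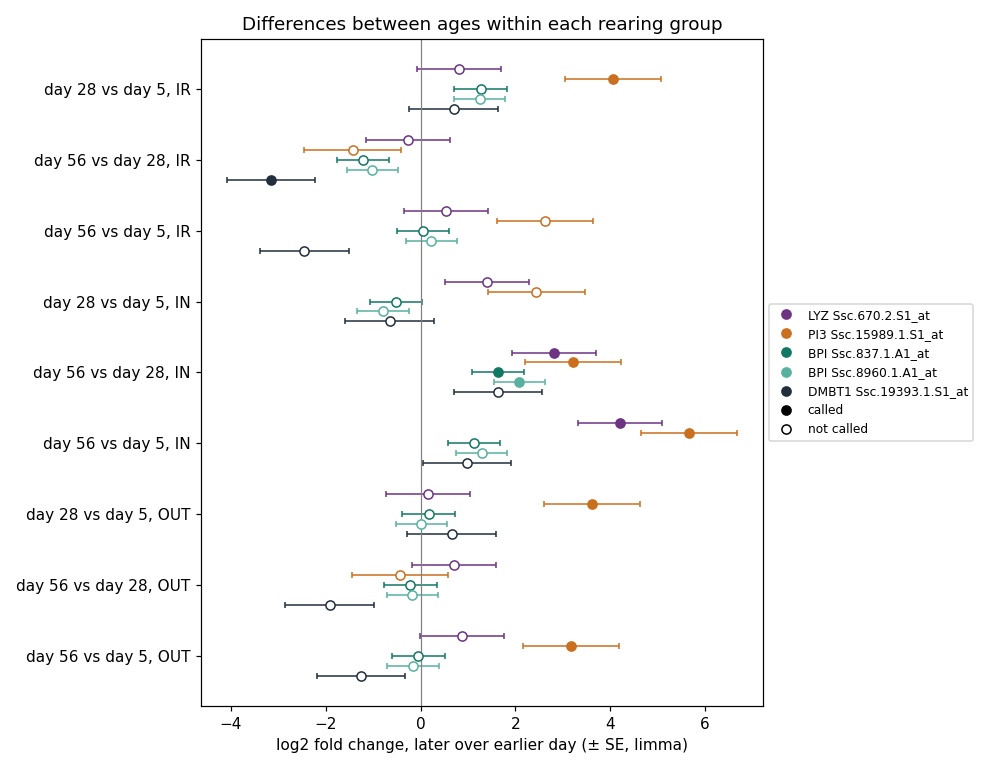
Log2 fold change (x axis, ± SE from limma) of the 5 probesets between ages within IR, IN and OUT (y axis, later over earlier day), with filled symbols for called probesets. PI3 lies to the right of 0 in all comparisons with day 5, and 4 of 5 probesets are called higher at day 56 than at day 28 in IN.

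The 2 BPI probesets could be set against each other array by array. Over the 54 arrays they correlated at r = 0.86, and at r = 0.81 after the mean of each group had been subtracted. Their fold changes differed by less than either standard error in all 3 comparisons at day 56. The brighter probeset was called in none of the within-day comparisons, whereas the dimmer one was called in IN against OUT and IR against IN at day 56.

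The LYZ probeset was set beside Ssc.670.1.S1_at, an unnamed probeset whose identifier has the same cluster number, picked after its values had been seen. Its lowest, median and highest values at day 56 were 9.04, 9.67 and 12.17 in IR, 11.38, 12.64 and 13.22 in IN, and 9.57, 11.34 and 12.54 in OUT, far brighter than LYZ on the same arrays. The pair correlated at r = 0.86 over the 54 arrays and at r = 0.85 after group means were subtracted. In IR against IN at day 56 its log2 fold change was -2.45 ± 0.56 (SE, limma unadjusted p = 3.93e-04), and in IN against OUT it was 1.39 ± 0.56 (unadjusted p = 0.0233). The brighter probeset thus ran in the same directions with smaller fold changes.

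PI3 was compared in the same way with SPAI-2, another member of the elafin family that lies next to PI3 in the RefSeq pig annotation with no gene between them. SPAI-2 averaged 12.82 ± 0.18 in IR, 12.18 ± 1.21 in IN and 12.79 ± 0.17 in OUT at day 28, and 12.88 ± 0.15 in IR, 13.01 ± 0.08 in IN and 12.89 ± 0.10 in OUT at day 56. The IN mean at day 28 included 9.73 in replicate 3, against 12.52 to 12.88 in the other IN arrays. By group median SPAI-2 stood at the 99.2nd to 99.6th percentile of its arrays at these ages. Like PI3 it was higher at day 28 than at day 5, by 2.31 ± 0.68 in IR (limma adjusted p = 0.0155), 1.95 ± 0.68 in IN (adjusted p = 0.0330) and 2.44 ± 0.68 in OUT (adjusted p = 0.00921). At day 56 the log2 fold change of IN over OUT was 0.12 ± 0.08 for SPAI-2 (limma unadjusted p = 0.166), on a signal near the top of the array's range.

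**Figure D4:**
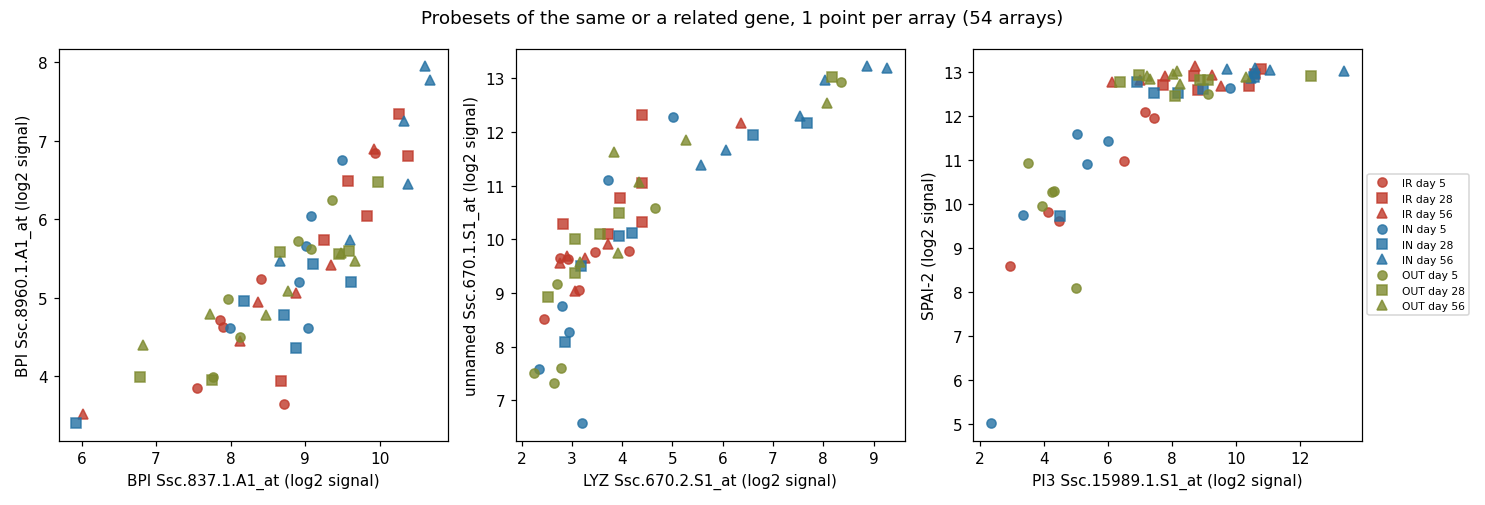
Log2 signal of the 2 BPI probesets (left), of LYZ and the unnamed probeset of the same cluster number (middle) and of PI3 and SPAI-2 (right), with 1 point per array for 54 arrays, colour for rearing group and symbol for day. The first 2 pairs rise together, whereas SPAI-2 lies between 12.46 and 13.13 at days 28 and 56 in all arrays but 1 whatever the level of PI3.

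The 4 genes did not vary as one group. PI3 and DMBT1 correlated at r = 0.45 over the 54 arrays and at r = 0.68 after group means were subtracted, and this pair was the closest of those with 2 different genes within groups. The brighter BPI probeset correlated with PI3 at r = -0.04 and with DMBT1 at r = -0.19 after the same subtraction, and LYZ with DMBT1 at r = 0.12. These are descriptions across 54 arrays that share rearing group and age.

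The closest companions of each gene differed as well. PI3 went with C4BPB, a subunit of the complement inhibitor C4b-binding protein (r = 0.89 over 54 arrays), with complement C5 (r = 0.88) and with CCL28, a mucosal chemokine (r = 0.85). LYZ went with RIPOR2, a regulator of the small GTPase RHOA (r = 0.70), with the motor protein MYO5A (r = 0.70) and with PARP8 (r = 0.69). DMBT1 went with the sorting nexin SNX22 (r = 0.80), TMEM254 (r = 0.76) and NSDHL, an enzyme of cholesterol synthesis (r = 0.75). BPI had weaker companions, LOC100525572 (r = 0.43), the chemokine receptor XCR1 (r = 0.42) and CSRNP2 (r = 0.41) for the brighter probeset and ANG, the antimicrobial ribonuclease angiogenin (r = 0.48), PNLIPRP2, a pancreatic lipase relative (r = 0.44), and XCR1 (r = 0.41) for the dimmer one. After group means were subtracted, r was 0.82 for PI3 and C4BPB, 0.80 for LYZ and RIPOR2, 0.81 for DMBT1 and SNX22 and 0.49 for the dimmer BPI probeset and ANG. All correlations over the 54 arrays include OUT replicate 3 of day 5, which stood apart and had a LYZ value of 8.36. None was computed without that array.

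Other antimicrobial genes of the mucosa, from defensins to lectins, were measured by 30 of the 53 names on a list, each at its brightest probeset. None of the 30 was called in IN against OUT at day 56, where 66 of all 24057 probesets were, which does not set the list apart. Their median log2 fold change there was 0.05 beside -0.01 over all probesets. None was called either in IR against IN (median 0.01) or IR against OUT (median 0.09) at that age, where 69 and 68 probesets were. In IN over OUT 18 of the 30 had positive log2 fold changes. Among them, granulysin (GNLY), a protein of cytotoxic lymphocyte granules, had 1.95 ± 0.82 (SE, limma unadjusted p = 0.0294). SLPI, a relative of elafin, had 1.62 ± 0.79 (limma unadjusted p = 0.0556), and LGALS9, a galectin, 1.39 ± 0.59 (unadjusted p = 0.0311). These 3 were picked after their values had been seen and are not a ranking. The study reported the chemokine CCL28, also on the list, as higher in IN than OUT at this age, on its arrays and by real-time PCR.

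Earlier ages gave a few calls in the same list, all higher in IR. Of all 24057 probesets, 55 were called higher in IR over OUT and 64 in IR over IN at day 5. At day 28 these counts were 25 and 82. CCL28, which is also antimicrobial, rose in IR over OUT at day 5 (1.55 ± 0.51, SE, limma unadjusted p = 0.00706) and day 28 (2.06 ± 0.67, unadjusted p = 0.00707), and in IR over IN at day 5 (2.17 ± 0.51, unadjusted p = 4.91e-04) and day 28 (2.19 ± 0.67, unadjusted p = 0.00457). LEAP2, an antimicrobial peptide made by liver and small intestine, rose in IR over IN at day 5 (2.78 ± 0.89, unadjusted p = 0.00599). None of the 30 was called in IN against OUT at day 5 or day 28, where 12 and 46 of all probesets were. Adjusted over all probesets, none of these p-values was under 0.05. The day 5 fits include OUT replicate 3, with a mean of 6.67 over the list against 5.18 to 5.68 in the other OUT arrays. CCL28 and LEAP2 were not refitted without it.

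**Figure D5:**
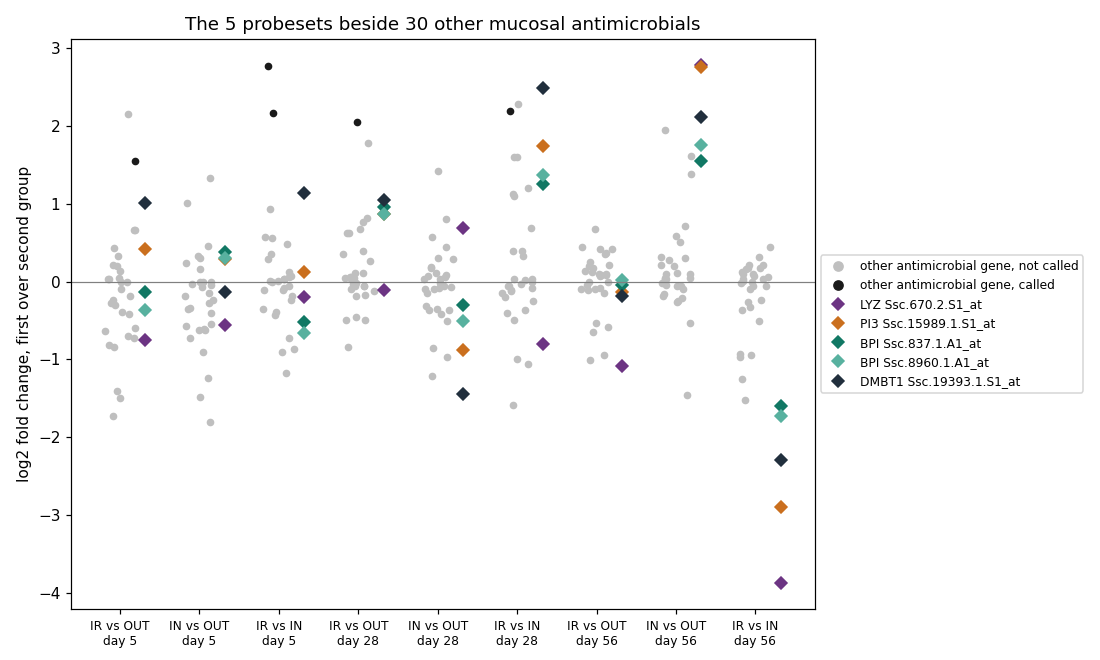
Log2 fold change (y axis, first over second group) of 30 other mucosal antimicrobial genes (circles, dark where called) and of the 5 probesets (diamonds) in each comparison of rearing groups (x axis). At day 56 the diamonds of IN vs OUT lie between 1.55 and 2.79 while the circles have a median of 0.05 and none is dark. The 5 probesets had been selected on that contrast, so their distance from the circles is in part built in.

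Signals that can induce such genes, such as cytokines, Toll-like receptors and NF-kB factors, were measured for 23 of 33 listed names. None was called in IN against OUT at day 56, where 66 of all 24057 probesets were, and their median log2 fold change was 0.08. The 2 brightest, the transcription factors IRF1 and STAT3, averaged 10.70 and 10.29 over the 54 arrays. OUT replicate 3 of day 5, which stood apart, had a mean of 8.89 over this list, against 5.52 to 5.85 in the other OUT arrays. The day 5 calls below were not refitted without that array. The other comparisons of rearing groups held 4 calls, named after their values had been seen, with TLR2, a receptor for bacterial lipoproteins, lower in IR than OUT at day 5 (-1.83 ± 0.47, SE, limma unadjusted p = 0.00122) and than IN (-1.77 ± 0.47, unadjusted p = 0.00162), LY96, the lipopolysaccharide co-receptor, lower in IR than OUT at day 56 (-1.59 ± 0.44, unadjusted p = 0.00205), and IRF1 higher in IR than IN at day 28 (1.34 ± 0.41, unadjusted p = 0.00461).

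Markers of the cells that could carry these transcripts were read beside the members. The 7 neutrophil markers measured were mostly dim, with S100A8, S100A9, S100A12, LTF, ELANE and MMP9 averaging 1.61 to 2.62 over the 54 arrays and NCF1 averaging 4.74. Their mean level at day 56 ranged from 2.35 to 2.60 in IR, 2.37 to 2.58 in IN and 2.45 to 2.79 in OUT. None of the 7 was called in IN against OUT at that age, beside 66 of all 24057 probesets. The part of neutrophils in the LYZ and BPI differences was not tested.

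The 10 macrophage and monocyte markers had a mean level of 6.02 to 6.88 in IR, 6.60 to 7.55 in IN and 6.54 to 7.23 in OUT at day 56. In IN against OUT 8 of 10 had a positive log2 fold change and none was called, beside 66 of all 24057 probesets. The nearest were CD163 (0.80 ± 0.32, SE, limma unadjusted p = 0.0237) and CD5L (0.90 ± 0.36, unadjusted p = 0.0226). In IR against IN 2 of 10 were called lower, beside 0.166% of all probesets. These, also named after their values had been seen, were CD163, a scavenger receptor of macrophages (-1.33 ± 0.32, SE, limma unadjusted p = 7.33e-04), and CD5L (-1.10 ± 0.36, unadjusted p = 0.00714). The 2 brightest, LGMN and C1QC, differed by -0.05 and 0.25 in IN over OUT. Over the 54 arrays LYZ correlated with the macrophage list at r = 0.50 and PI3 at r = 0.70, and at 0.41 and 0.40 after group means were subtracted. The brighter and dimmer BPI probesets correlated with it at 0.27 and 0.18, and at 0.03 and -0.09 after the subtraction. DMBT1 had 0.15 and 0.19. The part of macrophages in the member differences was not tested.

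Epithelial and lymphocyte markers had no call in IN against OUT at day 56, where 66 of all 24057 probesets did. The lists held 9 enterocyte, 6 goblet, 7 T cell, 3 plasma cell and 5 proliferation genes. Their medians lay between -0.06 and 0.23. Their mean levels at day 56 were 12.97 ± 0.19 in IN and 12.87 ± 0.31 in OUT for enterocytes, and T cell levels ranged from 6.69 to 8.07 in IN and from 6.73 to 8.47 in OUT. In IR against IN at day 56, 6 of the 7 T cell genes had negative log2 fold changes (median -0.86), with T cell levels of 5.78 to 7.81 in IR, against 6.69 to 8.07 in IN, and none was called. All 5 proliferation genes were likewise negative (median -0.48) and uncalled. Of the 9 enterocyte genes 1 was called lower in IR, beside 0.166% of all probesets, while the median was 0.16. This gene was APOA4, an apolipoprotein of fat absorption named after its values had been seen (-1.03 ± 0.23, SE, limma unadjusted p = 2.93e-04). The part of these cells in the lower LYZ, PI3 and BPI signals of IR was not tested.

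The Paneth cell list had 1 measured gene, MMP7, which averaged 1.97 and could not mark these cells. The B cell list likewise had only CD79B, a part of the B cell receptor, which ranged from 2.98 to 3.31 in IN and from 2.77 to 10.59 in OUT at day 56. Over the 54 arrays LYZ correlated with CD79B at r = 0.49, and at r = 0.61 after group means were subtracted, and the part of B cells in its differences was not tested. Proliferation genes moved with DMBT1 from piglet to piglet, at r = 0.74 over 54 arrays after group means were subtracted, and their part in its differences was not tested.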

How the data were processed

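The authors deposited log2 values, which they had computed with GCRMA from Affymetrix porcine GeneChip scans (GCOS 1.2, per the labels), so depth does not apply and the number of arrays limits precision. All 54 arrays were used, 24123 probesets were listed, and 66 control probesets were left out. Names came from the platform annotation (10099 probesets with 1 symbol) and, where it gave none, from the study's gene lists (132). The members and lists were chosen with earlier results of these data known. Rearing groups were compared within each day in limma 3.58.1 (R 4.3.3) over its 3 groups. Ages and changes between days were fitted over all 9 groups. A call needed an unadjusted p under 0.01 and at least a 2-fold change (p alone for changes between days), and adjusted p-values are Benjamini-Hochberg over 24057 probesets. The fits were tested on simulated data. The study's own limma fit had the run of the experiment as a blocking factor. The run of each piglet is not in the labels, so no block was used here. Named genes were all members, antimicrobials called in any within-day comparison, markers and inducers called in IN against OUT at day 56 or the 2 brightest of a list, and the 3 best-correlated genes of each member. Litter is not given per piglet, so p-values treat piglets as independent. No sequences were read. The alternatives tried were other sample sets, replicate blocks, filters, normalizations, weights, variance priors and single arrays left out, and leaving single arrays out of the 9-group fit was added after seeing the data.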

Additional observations from a re-analysis of the deposited data

Results flagged for a closer look

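In 5 of the 45 probeset and group combinations 1 array lay far from the other 5, and chance alone flags about 1 group in 20. LYZ was 8.17 in OUT replicate 6 at day 28, against 2.52 to 3.93 in the other OUT arrays of that day. The B cell marker CD79B stood apart in the same array, at 8.02 against 2.38 to 2.80, and was 9.79 in OUT replicate 2 of day 56, whose LYZ was 8.07. The part of B cells in these LYZ values was not tested. LYZ was also 6.36 in the unnumbered IR array at day 56, against 2.77 to 3.71 in the others. The brighter unnamed probeset of the same cluster number was highest in that IR array too, at 12.17 against 9.04 to 9.92. PI3 was 9.11 in OUT replicate 6 at day 5, against 3.50 to 5.01, then 13.38 in IN replicate 2 at day 56, against 9.72 to 11.05, and 10.31 in OUT replicate 3 at day 56, against 7.22 to 8.24.

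The IN over OUT difference changed between day 28 and day 56 by 2.25 on the log2 scale for the dimmer BPI probeset and by 3.55 for DMBT1, at unadjusted p-values of 0.00495 and 0.00988 in limma. Both changes contain the day 56 contrast on which the probesets had been selected.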

How the results depend on the processing

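Deposited signals were already normalized, and 6 arrays a group, a dim LYZ probeset and deviating arrays in OUT at day 5 and in IN at day 28 limit the precision. Followed were the counts of called members and the 24 within-day fold changes larger than their standard error, and none of these reversed under any alternative. Apart from single arrays left out, the fold changes kept their side of the threshold in 248 refits, passed it in 7 where the report has no call and missed it in 2 where it has one. Fold changes smaller than their standard error were given no direction and not followed. With an adjusted p under 0.05 as the rule, IN against OUT and IR against IN at day 56 had 0 called members. Array weights gave 1 in IR against IN at day 28, 1 in IR between day 56 and day 5, 1 in OUT between day 56 and day 28, and 1 for the change of IN over OUT between day 5 and day 56. That last count was also 1 with dim probesets left out and with renewed quantile normalization, and the count for the change between day 28 and day 56 was 1 with renewed quantile normalization and with an intensity trend. The cause was not tested.

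Whether replicate numbers pair the piglets could not be settled. Deviations of arrays with the same number correlated at -0.482 to 0.68, and in no comparison did every pair exceed 0.1. Such values cannot exclude a shared run or litter. With a replicate block by label number or by numbers in twos, IR had 0 called members between day 56 and day 28 and 1 between day 56 and day 5, and the block by label number left 1 changed contrast between day 28 and day 56 for IN over OUT.

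Leaving out single arrays gave 0 to 1 called members in IR against IN at day 28, 1 to 3 in IR between day 28 and day 5, 0 to 2 in IR between day 56 and day 28, 0 to 1 in IR between day 56 and day 5, 0 to 1 in IN between day 28 and day 5, 1 to 4 in IN between day 56 and day 28, 0 to 1 in OUT between day 56 and day 5, and for the change of IN over OUT 0 to 1 between day 5 and day 56 and 1 to 3 between day 28 and day 56.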
